A study of Mus musculus with 67 samples.

Results

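The retina of Abca4-/- Rdh8-/- mice was compared between 6h and 1d, gene by gene, in 4 libraries of the 1d group and 3 of the 6h group, chosen by their group labels from 17 retina RNA libraries and 33 RNA libraries in all. Every mouse of these groups carried both deletions, so the comparison is between times and not between genotypes. The other retina groups were NB (n = 6) and 3d (n = 4) of the same genotype, and they appear below only as levels for context. The labels neither spell out NB nor name the event from which 6h and 1d were counted, and they give no age, sex or clone. They call the mice photosensitive, and they state that the eyes of 1 mouse were pooled into 1 sample. Different samples stand for the 6h and 1d times, so that no animal was followed. Where separate animals are not stated per sample, a p-value measures only the spread between these samples.

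Abca4 codes for a flippase that moves retinal conjugates out of the discs of photoreceptor outer segments, and Rdh8 for a dehydrogenase that reduces all-trans-retinal there. Mice without both clear retinal slowly after light, and their photoreceptors are easily harmed by it. Rods and cones turn light into a voltage change through a cascade of opsin, transducin and phosphodiesterase. Muller glia span the retina, recycle glutamate and ammonium through glutamine synthetase, and react to injury with intermediate filaments, protease inhibitors and cytokine signalling through interleukin-6 family receptors and STAT factors. Interferon signalling acts through STAT and IRF factors and raises antiviral genes and the genes that load peptide onto class I molecules.

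Levels are given in CPM, the authors' counts per M reads scaled by an effective library size. Differences are 1d minus 6h on the log2(CPM + 0.5) scale with their SE, which understates the change of genes with low levels. Genes with a limma p-value under 0.05 after adjustment over all 16926 genes tested are called higher or lower. Group levels are means ± SD over 3 libraries at 6h and 4 libraries at 1d. The 6h libraries held 22.6 to 32.4 M reads and the 1d libraries 9.45 to 11.3 M, which puts them in different depth sets. Between the 6h and 1d libraries alone, time and depth set cannot be told apart. NB had 2 libraries in the deeper set and 4 in the shallower one, between which 227 genes (1.34%) passed the test. Before adjustment, 2655 of the 16926 genes had a limma p under 0.05 between these NB sets. The NB libraries allowed a second fit with the depth set as a term. That fit had a median SE of 0.144 where the fit without it had 0.0991, and its value is printed beside each gene that lost its call in it.

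At 1d 5932 genes differed from 6h, 35.0% of those tested. Of these, 2963 were higher (17.5% of the tested genes) and 2969 lower (17.5%). With the depth set as a term 2427 genes passed (14.3%), 979 higher (5.78%) and 1448 lower (8.55%), and 2236 of the 5932 calls were made again in the same direction. The counts of each gene list below stand beside these shares of all genes. The median difference over all genes was 0.0043. Scaled by library totals instead of the authors' effective sizes, the median gene shifted by 0.131 towards 1d, and 75.3% of the calls were then higher at 1d in place of 49.9%. A difference of at least 2-fold was called for 528 genes, 267 higher and 261 lower. Rises reached further than falls: 38 genes were at least 4-fold higher and 4 at least 4-fold lower, and 7 were at least 8-fold higher. Of the 267 genes with at least 2-fold higher levels at 1d, 240 had their highest mean of the 4 retina groups at 1d, and 197 had their lowest in NB. Of the 261 that were at least 2-fold lower, 191 had their highest mean at 6h and 196 their lowest at 1d.

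**Figure D1:**
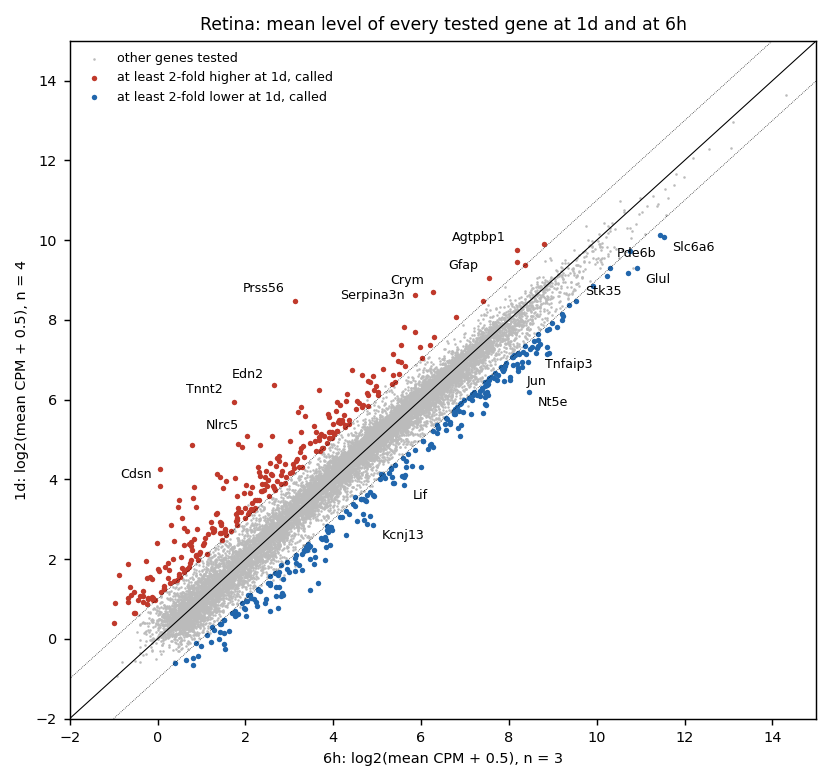
Mean level of each tested gene at 6h (horizontal axis, n = 3) and at 1d (vertical axis, n = 4), both as log2(mean CPM + 0.5), with the line of equal levels and dotted lines at a 2-fold difference. The 267 genes called at least 2-fold higher at 1d are red and the 261 called at least 2-fold lower are blue, and Prss56, Tnnt2 and Edn2 lie farthest above the line among the labelled genes.

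Prss56, a secreted serine protease that Muller glia make and that is tied to eye growth, showed the largest rise. It measured 9.68, 8.45 and 6.72 CPM in the 6h libraries and 454, 258, 253 and 461 CPM in the 1d libraries. No 6h library came near any 1d library (log2 difference 5.30 ± 0.22 SE, adjusted p = 6.67e-12), and within the 1d group libraries 1d 1 and 1d 4 lay well above 1d 2 and 1d 3. Its level was 2.74 ± 0.452 CPM in NB and 2.35 ± 0.722 CPM at 3d, so the 1d group alone was high. Tnnt2, the cardiac form of troponin T, measured 1.73, 3.39 and 3.36 CPM in the 6h libraries and 63.6, 67.1, 58.8 and 55.7 CPM in the 1d libraries. For Tnnt2 the log2 difference was 4.26 ± 0.21 SE (adjusted p = 3.51e-11). Cdsn, which codes for corneodesmosin of the skin's outer layer, measured 0.409, 0.736 and 0.495 CPM in the 6h libraries and 15.1, 12.1, 9.51 and 18.7 CPM in the 1d libraries. Cdsn differed by 3.75 ± 0.20 SE on the log2 scale (adjusted p = 6.87e-11). Lad1, ladinin of basement membranes, averaged 9.18 ± 2.798 CPM at 6h and 55.4 ± 5.82 CPM at 1d. For Lad1 the log2 difference was 2.57 ± 0.21 SE (adjusted p = 2.11e-08). Cdsn and Lad1 were 2 of the 11 tested genes of a surface epithelium list, in which Dsp (desmoplakin) was lower (-0.78, and -0.68 with the depth set as a term, adjusted p = 0.255, adjusted p = 0.0541 without 6h 3, adjusted p = 0.0632 with reads thinned to equal depth) and the other 8 did not pass. For the surface epithelium genes, leaving out 1 library gave 2 higher and 1 to 2 lower, a move of over 1.5 times without 1d 3. The keratin genes Krt5 and Krt12, named as its defining markers and not for their change, summed to values that ranged from 1.98 to 9.68 CPM at 6h and from 2.78 to 10.4 CPM at 1d.

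Other genes among the largest rises had low levels at 6h. Scube1, a secreted protein with EGF-like repeats, measured 3.498, 1.92 and 3.68 CPM in the 6h libraries and 28.1, 29.9, 28.3 and 30.2 CPM in the 1d libraries (log2 difference 3.11 ± 0.20 SE, adjusted p = 6.33e-10), with narrow spread at 1d. Npy4r, a receptor for pancreatic polypeptide, averaged 2.18 ± 0.527 CPM at 6h and 16.1 ± 4.199 CPM at 1d, a difference of 2.61, and Dlx3, a homeobox factor, 0.888 ± 0.2697 CPM at 6h and 9.43 ± 1.202 CPM at 1d, a difference of 2.85. Gene models without a descriptive name also met the rule for the largest rises: CT025671.4 (4.20), Gm13821 (4.09), 9330175E14Rik (2.97) and Gm12802 (2.88).

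Measured by CPM gained and not by ratio, the largest rise was that of Agtpbp1, a carboxypeptidase that trims glutamate chains from tubulin and without which photoreceptors and Purkinje cells die. It measured 279, 301 and 289.8 CPM in the 6h libraries and 795, 940.2, 880.5 and 855 CPM in the 1d libraries (log2 difference 1.58 ± 0.08 SE, adjusted p = 3.51e-11), and at 249.7 ± 20.5 CPM in NB and 352 ± 32.3 CPM at 3d the other groups stayed below every 1d library. Crym, a thyroid hormone binding enzyme of the retina, measured 77.6, 80.4 and 73.1 CPM in the 6h libraries and 441, 388, 376 and 468 CPM in the 1d libraries. Crym differed by 2.43 ± 0.15 SE on the log2 scale (adjusted p = 4.51e-10). Gnb3, a transducin beta subunit of cones and ON bipolar cells, measured 427, 479 and 428 CPM in the 6h libraries and 896, 928, 1018 and 993 CPM in the 1d libraries. For Gnb3 the log2 difference was 1.11 ± 0.06 SE (adjusted p = 2.45e-10). Impg2, a proteoglycan of the matrix around the outer segments, measured 253, 309 and 304 CPM in the 6h libraries and 635, 750.0, 757 and 672 CPM in the 1d libraries. Impg2 differed by 1.29 ± 0.07 SE on the log2 scale (adjusted p = 1.34e-10). All of these were higher in each 1d library than in each 6h library. Eef1a1, the elongation factor, was higher by a smaller ratio (log2 difference 0.46 ± 0.08 SE, adjusted p = 1.45e-04). Clu, the chaperone clusterin, measured 834, 682 and 1078 CPM in the 6h libraries and 1503, 1232, 1171 and 1342 CPM in the 1d libraries. For Clu the log2 difference was 0.62 ± 0.16 SE (adjusted p = 0.00507), but it was 0.08 with the depth set as a term, adjusted p = 0.838.

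Genes of reactive glia were higher at 1d: of 32 tested genes 18 higher and 2 lower (median log2 difference 0.61), and with the depth set as a term 11 higher and 4 lower (median 0.40). In fits without 1 library the glial reactivity counts were 16 to 18 higher and 2 to 5 lower, over 1.5 times apart from these without 1d 1 or 1d 4. Edn2, an endothelin that injured photoreceptors are known to release, measured 3.998, 6.46 and 6.999 CPM in the 6h libraries and 92.1, 91.2, 61.7 and 80.7 CPM in the 1d libraries (log2 difference 3.71 ± 0.28 SE, adjusted p = 6.92e-09, and 2.70 ± 0.30 SE with the depth set as a term). Its glial receptor gene Ednrb measured 13.1, 13.1 and 16.3 CPM in the 6h libraries and 59.1, 46.7, 39.6 and 52.4 CPM in the 1d libraries (log2 difference 1.76 ± 0.14 SE, adjusted p = 1.38e-08), so that ligand and receptor were both higher in every 1d library. Edn3, with 3.19 ± 2.15 CPM at 6h and 1.25 ± 0.332 CPM at 1d, Edn1 and the converting enzyme gene Ece1 did not pass the test (Edn3 log2 difference -0.91 ± 0.39 SE, adjusted p = 0.0770, adjusted p = 0.00833 without 6h 2, adjusted p = 0.0181 in DESeq2, adjusted p = 0.0388 in edgeR, adjusted p = 0.0443 with a pseudocount of 2, Edn1 log2 difference 0.24 ± 0.19 SE, adjusted p = 0.357, Ece1 log2 difference 0.14 ± 0.06 SE, adjusted p = 0.112, adjusted p = 0.0403 without 1d 2, adjusted p = 0.00212 scaled by library totals). Fits that left out 1 library gave endothelin system counts of 2 to 3 higher and 0 to 1 lower, with a move of over 1.5 times without 6h 2. Serpina3n, an acute-phase protease inhibitor, measured 66.1, 42.2 and 65.01 CPM in the 6h libraries and 482, 411, 289.9 and 386 CPM in the 1d libraries. Serpina3n differed by 2.76 ± 0.27 SE on the log2 scale (adjusted p = 1.52e-07). A2m, alpha-2-macroglobulin, measured 52.8, 37.4 and 54.2 CPM in the 6h libraries and 257, 244, 188 and 209.6 CPM in the 1d libraries. For A2m the log2 difference was 2.22 ± 0.14 SE (adjusted p = 5.04e-10). Gfap, the intermediate filament of reactive glia, measured 133, 203 and 226 CPM in the 6h libraries and 536, 522, 479 and 570.4 CPM in the 1d libraries. Gfap differed by 1.52 ± 0.15 SE on the log2 scale (adjusted p = 1.45e-07). S100a10, a partner of annexin, was higher too (1.27). Library 1d 1 held the highest of the 4 1d values for 23 of the 32 genes, and library 1d 3 the lowest for 20.

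The resting functions of Muller glia moved unevenly: of 25 tested genes 6 higher and 9 lower (median log2 difference -0.08, or 0.06 when scaled by library totals), and with the depth set as a term 3 higher and 8 lower (median -0.34). Glul, glutamine synthetase, measured 2036, 1821 and 1904 CPM in the 6h libraries and 634, 651, 654 and 577 CPM in the 1d libraries. For Glul the log2 difference was -1.61 ± 0.07 SE (adjusted p = 7.19e-12). This was the lowest group for Glul, since it was at 2698 ± 94.5 CPM in NB and 2703 ± 153 CPM at 3d, and a pseudogene copy means that its reads may be split. Abca8a, a lipid transporter, was lower as well (-0.88). In the other direction Aldh1l1, a folate enzyme used as an astrocyte marker, measured 26.4, 22.6 and 25.3 CPM in the 6h libraries and 105, 93.8, 80.3 and 111 CPM in the 1d libraries (log2 difference 1.95 ± 0.11 SE, adjusted p = 2.13e-10), and Gpr37 (0.62) and the glutamate transporter gene Slc1a3 (0.37) rose by less. The 4 defining markers of Muller glia summed to 2702 to 2905 CPM at 6h and to 1402 to 1563 CPM at 1d, with 2 of them higher and 2 lower. Most of the fall of this sum was that of Glul, so the sum does not stand for all 4 markers. In whole retina, fewer cells of a type and less RNA per cell cannot be told apart. Slc6a6, the taurine transporter, which photoreceptors, glia and RPE use, measured 2789, 2929.7 and 3092 CPM in the 6h libraries and 1068, 1040.0, 1290.2 and 954 CPM in the 1d libraries. Slc6a6 differed by -1.44 ± 0.10 SE on the log2 scale (adjusted p = 2.66e-09).

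Among interleukin-6 family ligands, Lif and Il27 moved in opposite directions. Lif, the cytokine that Muller glia make under photoreceptor stress, measured 51.7, 51.1 and 41.3 CPM in the 6h libraries and 21.2, 11.6, 10.2 and 13.2 CPM in the 1d libraries. For Lif the log2 difference was -1.78 ± 0.23 SE (adjusted p = 4.84e-06). It was lower in each 1d library than in each 6h library, and still above NB, where it averaged 0.718 CPM. Il27, a subunit of interleukin-27, measured 0.0454, 0.224 and 0.177 CPM in the 6h libraries and 2.61, 1.09, 1.92 and 2.15 CPM in the 1d libraries. Il27 differed by 1.88 ± 0.24 SE on the log2 scale (adjusted p = 4.15e-06). Ctf1, cardiotrophin, measured 3.998, 3.07 and 4.35 CPM in the 6h libraries and 2.42, 4.17, 1.83 and 2.81 CPM in the 1d libraries, and the values of both groups overlapped (log2 difference -0.41 ± 0.21 SE, adjusted p = 0.140, adjusted p = 0.0273 without 1d 2). The other 7 ligands listed were not analysed here. Their receptors and signal carriers split: of 20 tested genes 7 higher and 5 lower (median log2 difference 0.01), and with the depth set as a term 5 higher and 3 lower (median -0.04). Without the term, 17.5% of all genes were called in each direction. For the receptor and signalling list 6 to 8 higher and 3 to 5 lower were called with 1 library left out, a move of over 1.5 times without 6h 2 or 6h 3. The receptor gene Lifr fell, with 185, 180.2 and 162 CPM in the 6h libraries and 71.8, 80.6, 91.4 and 79.95 CPM in the 1d libraries (log2 difference -1.12 ± 0.07 SE, adjusted p = 1.06e-09), while the shared chain gene Il6st rose (0.53) and the interleukin-6 receptor gene Il6ra rose from a low level (2.16 ± 0.586 CPM at 6h and 7.16 ± 1.91 CPM at 1d, 1.52). Also on this list, Socs3, a feedback inhibitor of these receptors, measured 29.3, 25.7 and 26.5 CPM in the 6h libraries and 76.99, 68.9, 60.9 and 68.3 CPM in the 1d libraries (log2 difference 1.32 ± 0.14 SE, adjusted p = 4.89e-07), and Bcl3, an NF-kappaB partner, 6.04, 5.95 and 5.94 CPM in the 6h libraries and 22.9, 19.2, 16.4 and 19.9 CPM in the 1d libraries. For Bcl3 the log2 difference was 1.63 ± 0.16 SE (adjusted p = 2.12e-07).

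**Figure D2:**
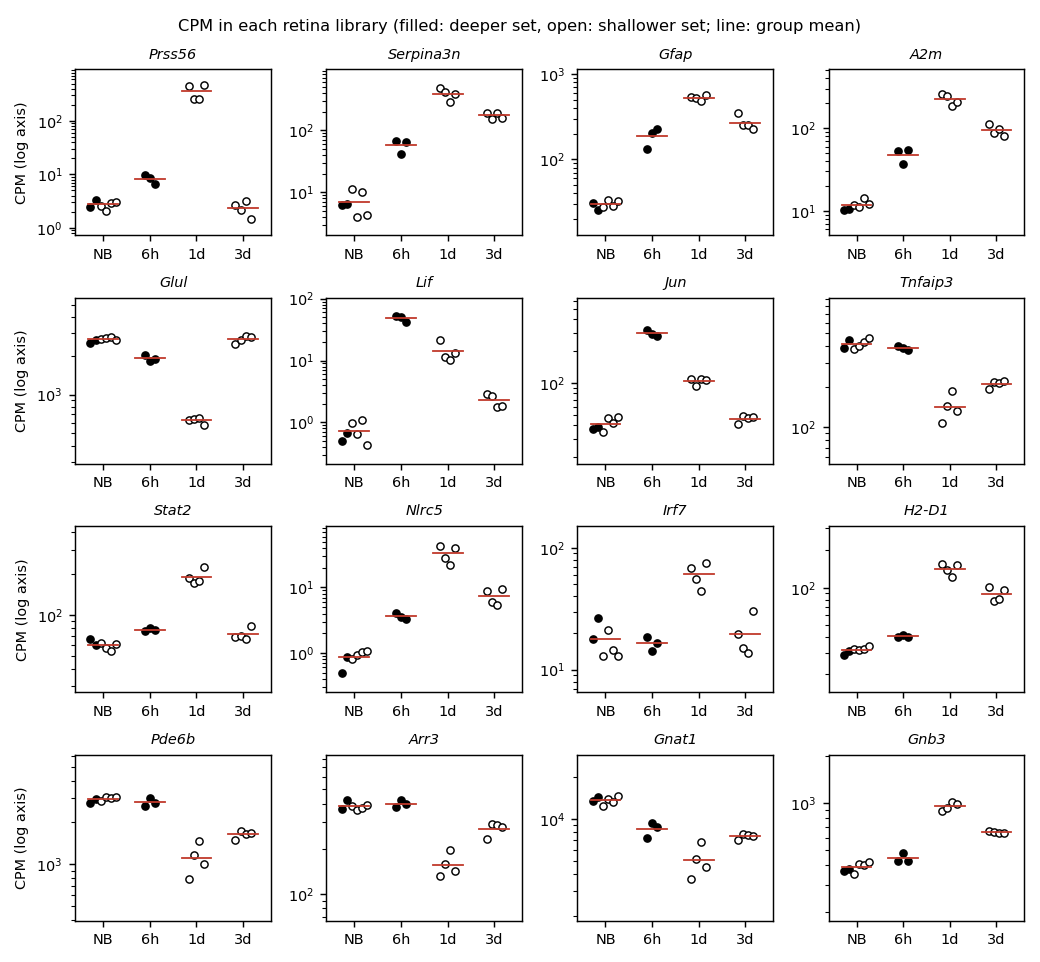
CPM on a log axis of 16 genes in each of the 17 retina libraries, by group, with filled points for the deeper and open points for the shallower libraries and a red line at the group mean. Prss56 is high at 1d alone, Lif and Jun are highest at 6h, Glul is lowest at 1d, Stat2, Nlrc5 and H2-D1 are highest at 1d, and Pde6b and Arr3 are lowest at 1d.

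Most antiviral and class I genes of the interferon response were higher at 1d. Of the antiviral interferon-stimulated genes, 37 of 40 were higher and the other 3 did not pass (median log2 difference 1.09), against 17.5% higher over all genes. With the depth set as a term 16 of the 40 passed, all of them higher (median 0.91). Bst2, tetherin, measured 2.18, 1.6002 and 2.33 CPM in the 6h libraries and 19.5, 16.1, 10.99 and 22.1 CPM in the 1d libraries. Bst2 differed by 2.77 ± 0.30 SE on the log2 scale (adjusted p = 5.68e-07). Usp18, which removes ISG15 and dampens the receptor, measured 1.59, 0.736 and 1.48 CPM in the 6h libraries and 16.4, 11.9, 8.03 and 17.6 CPM in the 1d libraries. For Usp18 the log2 difference was 2.96 ± 0.35 SE (adjusted p = 2.38e-06). Parp9 and its partner Dtx3l, an ADP-ribosyltransferase and a ubiquitin ligase, rose together, with 7.68, 6.27 and 8.73 CPM in the 6h libraries and 35.1, 27.8, 20.2 and 38.7 CPM in the 1d libraries for Parp9 (log2 difference 1.91 ± 0.19 SE, adjusted p = 3.12e-07) and a difference of 1.64 for Dtx3l. Trim25, a ubiquitin ligase of RNA sensing, rose from a higher base (41.7 ± 2.48 CPM at 6h and 85.8 ± 5.03 CPM at 1d, log2 difference 1.03 ± 0.08 SE, adjusted p = 8.54e-09), and Parp12 by 1.34. The size of the difference varied between the 1d libraries: library 1d 3 had the lowest of the 4 values in 35 of the 40 genes and library 1d 4 the highest in 28. The median over the list, as a log2 difference from the 6h mean, was 0.59 in 1d 3 and 1.58 in 1d 4.

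Of the interferon signalling factors 9 of 15 were higher and 1 lower, 7 and 0 with the depth set as a term. Of these, Stat2, Irf7, Irf8 and Irf9 each rose by more than 1 on the log2 scale. Stat2 measured 76.3, 80.1 and 77.3 CPM in the 6h libraries and 187, 172, 176 and 222 CPM in the 1d libraries (log2 difference 1.27 ± 0.08 SE, adjusted p = 1.27e-09), and Irf9, the DNA-binding part of the STAT complex, 35.5, 33.8 and 33.7 CPM in the 6h libraries and 101, 107, 101 and 126 CPM in the 1d libraries. Irf9 differed by 1.64 ± 0.12 SE on the log2 scale (adjusted p = 4.76e-09). Irf7, the factor that amplifies type I interferon, measured 18.7, 14.1 and 16.5 CPM in the 6h libraries and 67.9, 55.2, 43.97 and 75.1 CPM in the 1d libraries. For Irf7 the log2 difference was 1.83 ± 0.25 SE (adjusted p = 1.25e-05). Irf8, a factor of microglia and macrophages, measured 2.91, 2.59 and 3.15 CPM in the 6h libraries and 15.7, 14.7, 12.2 and 21.4 CPM in the 1d libraries. Irf8 differed by 2.26 ± 0.20 SE on the log2 scale (adjusted p = 4.56e-08). Smaller rises were those of Irf1 (0.61, and 0.51 with the depth set as a term, adjusted p = 0.0735), Irf5 (0.75), the receptor chain Ifnar2 (0.53, and 0.15 with the depth set as a term, adjusted p = 0.584) and Socs2 (0.60). The receptor chains Ifnar1 (0.00421, adjusted p = 0.0438 scaled by library totals), Ifngr1 (-0.05) and Ifngr2 (0.23, adjusted p = 0.00580 scaled by library totals, adjusted p = 0.0498 in the fit of 6h and 1d alone) and the factors Irf2 (-0.00497) and Irf3 (0.03) did not pass. Genes for the interferons themselves were not analysed here.

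Class I antigen presentation genes were higher too: of 21 tested genes 19 higher (median log2 difference 0.95), and with the depth set as a term 13 higher (median 0.86). Nlrc5, the transactivator of class I genes, measured 4.04, 3.58 and 3.25 CPM in the 6h libraries and 43.2, 28.6, 22.2 and 39.8 CPM in the 1d libraries. For Nlrc5 the log2 difference was 3.00 ± 0.22 SE (adjusted p = 4.14e-09). The heavy chain gene H2-D1 measured 40.3, 41.3 and 39.98 CPM in the 6h libraries and 156, 138, 122 and 153 CPM in the 1d libraries (log2 difference 1.79 ± 0.09 SE, adjusted p = 3.51e-11), although reads of H2 genes may be split between near-identical copies. Tap1, a peptide transporter subunit, measured 3.86, 5.28 and 4.52 CPM in the 6h libraries and 37.6, 26.2, 15.8 and 35.3 CPM in the 1d libraries (log2 difference 2.47 ± 0.21 SE, adjusted p = 3.82e-08), and Tapbp, tapasin, rose by 1.37. H2-Q7 stayed under 10 CPM (1.19 ± 0.2302 CPM at 6h and 4.88 ± 0.757 CPM at 1d, 1.67). Immunity-related GTPases and guanylate binding proteins did not all move one way: of 12 tested genes 8 higher and 2 lower (median log2 difference 0.89), and with the depth set as a term 2 higher and 2 lower (median 0.74). The GTPase counts were 5 to 8 higher and 1 to 2 lower with 1 library left out, and moved by over 1.5 times without 6h 1, 6h 2, 6h 3, 1d 2 or 1d 3. Igtp measured 4.91, 4.06 and 4.101 CPM in the 6h libraries and 21.3, 18.4, 11.3 and 25.8 CPM in the 1d libraries (log2 difference 1.97 ± 0.23 SE, adjusted p = 1.53e-06) and Irgm2 rose by 1.66. Irgm1, Iigp1 and Gbp3 rose, by 1.26, and 1.07 with the depth set as a term, adjusted p = 0.0630, by 1.42, and 1.26 with the depth set as a term, adjusted p = 0.0613, and by 1.14, and 0.71 with the depth set as a term, adjusted p = 0.301. The falling members were Gbp2 and Gbp2b (-0.74 for Gbp2b), both named after their values were seen. Gbp2 measured 23.7, 22.9 and 27.4 CPM in the 6h libraries and 22.6, 14.2, 11.3 and 19.6 CPM in the 1d libraries (log2 difference -0.57 ± 0.22 SE, adjusted p = 0.0474, adjusted p = 0.0738 to 0.149 without 6h 1, 6h 2, 6h 3, 1d 2 or 1d 3, adjusted p = 0.116 scaled by library totals, adjusted p = 0.0601 with reads thinned to equal depth, adjusted p = 0.0639 with a pseudocount of 0.1, adjusted p = 0.0556 in the fit of 6h and 1d alone). The list of class II genes, which also holds the integrin gene Itgax of antigen-presenting cells, was low throughout. Its sums were 8.16 to 11.7 CPM at 6h and 9.94 to 12.995 CPM at 1d. Itgax, not itself a class II gene, alone of 7 passed, with 0.549 ± 0.0755 CPM at 6h and 1.396 ± 0.4196 CPM at 1d (0.83, and 0.78 with the depth set as a term, adjusted p = 0.150).

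Promoter windows were searched for the motif of interferon factors. RefSeq windows on GRCm38.p6, from 250 bases before to 50 bases after a gene's start, were held for 11632 of the tested genes. The interferon factor motif AANNGAAA, searched on both strands, was present in 17.7% of those 11632 windows. It was present in 25 of 32 windows of antiviral genes (78.1%), in 8 of 8 of the GTPase group, in 11 of 18 of class I genes (61.1%) and in 2 of 12 of the signalling factors (16.7%). The motif can overlap itself and the STAT motif, and a match is not a bound site. The 3 windows below belong to Bst2 (chr8:71537423-71537722, minus strand), Trim25 (chr11:88999153-88999452, plus strand) and Igtp (chr11:58199306-58199605, plus strand), shown since these genes were named above and carry the motif at different places, with matches in capitals.
Bst2: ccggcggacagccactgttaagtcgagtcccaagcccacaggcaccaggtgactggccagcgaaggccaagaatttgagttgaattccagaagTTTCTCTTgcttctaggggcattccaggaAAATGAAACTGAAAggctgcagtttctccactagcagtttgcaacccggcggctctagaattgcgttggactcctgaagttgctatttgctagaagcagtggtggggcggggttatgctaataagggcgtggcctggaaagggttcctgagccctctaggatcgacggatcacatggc
Trim25: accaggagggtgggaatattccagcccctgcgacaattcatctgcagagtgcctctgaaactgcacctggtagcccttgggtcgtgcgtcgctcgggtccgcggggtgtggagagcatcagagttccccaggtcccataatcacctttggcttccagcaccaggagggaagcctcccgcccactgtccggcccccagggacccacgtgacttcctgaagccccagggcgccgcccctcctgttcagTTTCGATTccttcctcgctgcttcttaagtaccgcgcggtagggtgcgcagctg
Igtp: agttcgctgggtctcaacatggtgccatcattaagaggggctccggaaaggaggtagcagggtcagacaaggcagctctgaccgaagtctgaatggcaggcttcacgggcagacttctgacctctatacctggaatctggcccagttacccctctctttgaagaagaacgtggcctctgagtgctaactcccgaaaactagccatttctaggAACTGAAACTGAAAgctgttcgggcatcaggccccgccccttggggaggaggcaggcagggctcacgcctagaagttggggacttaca

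Bst2 had 3 matches, Igtp 2 and Trim25 1. Of the 185 genes with a window that were at least 2-fold higher at 1d, 29.2% held the motif, against 20.9% of the 182 that were at least 2-fold lower.

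Complement and phagocyte genes were also higher. For complement, of 17 tested genes 10 higher and 1 lower (median log2 difference 0.62), and with the depth set as a term 4 higher and 1 lower (median 0.33). For the complement genes, leaving out 1 library gave 7 to 10 higher and 1 to 2 lower, a move of over 1.5 times without 1d 3. Serping1, the C1 inhibitor, measured 16.04, 12.7 and 20.1 CPM in the 6h libraries and 57.9, 47.7, 41.9 and 60.01 CPM in the 1d libraries (log2 difference 1.65 ± 0.18 SE, adjusted p = 5.68e-07) and C4b 26.3, 14.2 and 28.2 CPM in the 6h libraries and 80.995, 49.4, 45.2 and 71.4 CPM in the 1d libraries. C4b differed by 1.43 ± 0.25 SE on the log2 scale (adjusted p = 1.61e-04). Cfi, a protease that cleaves C3b, rose from under 1 CPM (1.60), and C3 by 1.16, and 1.05 with the depth set as a term, adjusted p = 0.0594. For activated phagocytes, of 26 tested genes 15 higher (median log2 difference 0.49), and with the depth set as a term 5 higher (median 0.45). Axl, a receptor for dying cells, measured 21.5, 14.98 and 20.3 CPM in the 6h libraries and 79.04, 57.3, 50.9 and 60.5 CPM in the 1d libraries (log2 difference 1.68 ± 0.13 SE, adjusted p = 8.32e-09), and Lgals3, galectin-3, 8.31, 4.67 and 13.01 CPM in the 6h libraries and 61.7, 46.9, 39.4 and 56.2 CPM in the 1d libraries. For Lgals3 the log2 difference was 2.58 ± 0.29 SE (adjusted p = 1.06e-06). Spp1 (osteopontin, 1.03), Cybb (an NADPH oxidase subunit, 1.64) and Msr1 (a scavenger receptor, 1.65) rose as well. Axl and Spp1 are made by glia and neurons too.

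Genes of resting microglia were called in both directions, at shares near those of all genes. On the list of homeostatic microglia genes 2 of 15 were higher and 4 lower, beside 17.5% of all genes in each direction. With the depth set as a term 2 were lower, beside 8.55% of all genes. In fits without 1 library the homeostatic microglia counts were 2 to 4 higher and 2 to 5 lower, over 1.5 times apart from these without 6h 3 or 1d 3. Csf1r, the receptor that keeps microglia alive, measured 17.5, 14.4 and 19.5 CPM in the 6h libraries and 12.3, 10.5, 12.998 and 12.7 CPM in the 1d libraries. Csf1r differed by -0.48 ± 0.13 SE on the log2 scale (adjusted p = 0.00744), adjusted p = 0.0540 without 6h 3. Gpr34 (-0.80, adjusted p = 0.223 with reads thinned to equal depth), Siglech (-0.89, and -0.91 with the depth set as a term, adjusted p = 0.118, adjusted p = 0.0634 without 6h 3, adjusted p = 0.0598 with reads thinned to equal depth) and P2ry12 (-0.75, and -0.45 with the depth set as a term, adjusted p = 0.386, adjusted p = 0.0551 without 6h 1, adjusted p = 0.0510 in the fit of 6h and 1d alone) were lower from under 2 CPM, and Cx3cr1 was higher (3.305 ± 0.374 CPM at 6h and 5.699 ± 1.01 CPM at 1d, 0.69, and 0.33 with the depth set as a term, adjusted p = 0.356). The 4 microglia markers summed to 20.1 to 25.3 CPM at 6h and 16.6 to 20.8 at 1d, the 3 macrophage markers to 10.8 to 12.5 and 14.98 to 24.5. At 3d those macrophage markers reached 53.3 to 70.1 CPM. Of the chemokines and recruitment factors 5 of 13 were higher (median 0.33) and the others did not pass, and with the term 3 were higher (median 0.28). Fits that left out 1 library gave chemokine counts of 5 to 6 higher and 0 to 1 lower, with a move of over 1.5 times without 6h 2. Ccl9 measured 1.45, 2.05 and 2.33 CPM in the 6h libraries and 6.24, 6.45, 5.06 and 6.46 CPM in the 1d libraries (log2 difference 1.43 ± 0.15 SE, adjusted p = 4.66e-07), Csf1 rose by 1.01, Cxcl10, an interferon-induced chemokine, by 1.46, adjusted p = 0.0540 in DESeq2, Cx3cl1 by 0.35, and 0.28 with the depth set as a term, adjusted p = 0.0996, and Cxcl16 by 0.61, and 0.33 with the depth set as a term, adjusted p = 0.281. Of the 14 neutrophil and monocyte genes listed 2 were tested, and of the 15 lymphocyte genes 1. None of those 3 genes passed: Vcan (19.8 ± 16.6 CPM at 6h and 18.1 ± 7.603 CPM at 1d, unadjusted p = 0.719), Csf3r (unadjusted p = 0.875) and Lck (unadjusted p = 0.238).

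Immediate early genes were lower at 1d in part: of 30 tested genes 4 higher and 9 lower (median log2 difference -0.39), and with the depth set as a term 1 higher and 11 lower (median -1.03). The term rests on the NB libraries, where this list summed to 351 to 497 CPM in the deeper set. In the shallower NB set it summed to 366 to 1249.5 CPM, a wide spread, so the larger fall with the term depends on those libraries. For the immediate early gene list 1 to 3 higher and 7 to 9 lower were called with 1 library left out, a move of over 1.5 times without 6h 1, 6h 2, 1d 1 or 1d 2. Jun, a subunit of AP-1, measured 318, 289 and 278 CPM in the 6h libraries and 109, 94.5, 109 and 108 CPM in the 1d libraries. For Jun the log2 difference was -1.48 ± 0.10 SE (adjusted p = 8.84e-10). At 1d it was still above its level of 41.2 ± 5.398 CPM in NB and 46.1 ± 3.52 CPM at 3d. Fosl1, another AP-1 subunit, fell (21.5 ± 2.52 CPM at 6h and 9.92 ± 1.78 CPM at 1d, log2 difference -1.08 ± 0.16 SE, adjusted p = 2.41e-05), as did Ier3 (-0.85) and Ier5 (-0.48), while Atf3, a stress factor, was higher (24.9 ± 0.889 CPM at 6h and 44.3 ± 2.54 CPM at 1d, 0.82). Of the NF-kappaB genes 5 of 24 were higher and 6 lower, and with the term 2 and 2. These stand near the 17.5% of all genes in each direction, and with the term 5.78% higher and 8.55% lower. Tnfaip3, the ubiquitin editor that shuts NF-kappaB signalling off, measured 402, 393 and 374 CPM in the 6h libraries and 107, 143, 188 and 132 CPM in the 1d libraries (log2 difference -1.48 ± 0.12 SE, adjusted p = 1.47e-08), well under its level of 418 ± 31.1 CPM in NB and 212 ± 13 CPM at 3d. The adhesion molecule Icam1 fell by 1.12 on the log2 scale (14.2 ± 0.554 CPM at 6h and 6.501 ± 1.96 CPM at 1d), whereas Vcam1 rose by 0.78, and 0.71 with the depth set as a term, adjusted p = 0.0662. The kinase gene Map3k8 (4.44 ± 0.542 CPM at 6h and 17.7 ± 7.35 CPM at 1d, 1.77) and the death kinase gene Ripk1 (0.66) were higher.

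Stress response genes moved in both directions. Among heat shock genes, of 22 tested genes 4 higher and 8 lower (median log2 difference -0.02, or 0.10 when scaled by library totals), and with the depth set as a term 7 lower (median -0.20). The heat shock counts were 1 to 4 higher and 7 to 9 lower with 1 library left out, and moved by over 1.5 times without 6h 2. The inducible chaperone genes Hspa1a, with 52.02, 34.1 and 28.7 CPM in the 6h libraries and 14.5, 17.4, 21.4 and 16.6 CPM in the 1d libraries (log2 difference -1.08 ± 0.15 SE, adjusted p = 1.41e-05), and Hspa1b, a near-identical copy (-1.28), fell together with Hsp90aa1 (1746 ± 164 CPM at 6h and 1065 ± 57.8 CPM at 1d, -0.71), Hspa4l (-0.65) and the factor Hsf2 (-0.31). In the unfolded protein and integrated stress response 11 of 33 were higher and 8 lower, with Atf5 higher (29.98 ± 0.0868 CPM at 6h and 74.9 ± 4.93 CPM at 1d, log2 difference 1.304 ± 0.11 SE, adjusted p = 2.63e-08) and Ppp1r15a (-0.89), Ddit4 (-1.18), Ern1 (-0.75) and Vldlr (-0.87) lower. With the depth set as a term 4 of those were higher and 7 lower, and by library totals 18 and 6. For the stress response genes, leaving out 1 library gave 6 to 14 higher and 6 to 8 lower, a move of over 1.5 times without 6h 2 or 1d 4. Of the NRF2 list 7 of 29 were higher and 5 lower, 1 and 5 with the depth set as a term, and 13 and 2 by library totals. The first of these counts stand beside 17.5% of all genes in each direction. In fits without 1 library the NRF2 counts were 3 to 8 higher and 3 to 6 lower, over 1.5 times apart from these without 6h 1, 6h 2, 6h 3, 1d 1, 1d 2 or 1d 3. The ferritin light chain gene Ftl1 rose (0.69), Txn1 rose by 0.44, and 0.34 with the depth set as a term, adjusted p = 0.134, and Nqo1 (5.78 ± 1.15 CPM at 6h and 2.86 ± 0.243 CPM at 1d, -0.89), Me1 (-0.46) and Prdx6 (-0.27, adjusted p = 0.0734 scaled by library totals) fell. Of the 6 metallothionein genes none passed in limma without the depth set as a term, where 2 had an unadjusted p under 0.05, and 2 were lower with it. DESeq2 called 2 and edgeR 0. Fits that left out 1 library gave metallothionein counts of 0 to 3 lower, with a move of over 1.5 times without 1d 1 or 1d 4. Mt1 measured 135, 148 and 176 CPM in the 6h libraries and 149, 103, 93.6 and 144 CPM in the 1d libraries, and the groups overlapped (log2 difference -0.34 ± 0.14 SE, adjusted p = 0.0736, adjusted p = 0.0235 to 0.0343 without 1d 1 or 1d 4, adjusted p = 0.0489 in DESeq2, but -0.68 with the depth set as a term, adjusted p = 0.0258).

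For cell death genes 6 of 25 were higher and 5 lower, 1 and 2 with the depth set as a term, and 9 and 1 by library totals. The counts without the term were near the 17.5% of all genes called in each direction. For the cell death list 6 to 7 higher and 2 to 6 lower were called with 1 library left out, a move of over 1.5 times without 6h 1, 6h 2, 6h 3, 1d 1, 1d 2 or 1d 4. Bcl2 fell (28.6 ± 1.98 CPM at 6h and 16.9 ± 1.03 CPM at 1d, log2 difference -0.74 ± 0.07 SE, adjusted p = 2.75e-07) while Bcl2l1 rose by 0.28, and 0.14 with the depth set as a term, adjusted p = 0.199, Bid by 0.97, and 0.74 with the depth set as a term, adjusted p = 0.0789, and Casp8 by 0.99, and 0.86 with the depth set as a term, adjusted p = 0.123. Of the p53 targets 5 of 19 were higher and 5 lower, 2 and 4 with the depth set as a term, and those without the term again stand beside 17.5% in each direction. The p53 target counts were 3 to 5 higher and 4 to 5 lower with 1 library left out, and moved by over 1.5 times without 6h 2. Gadd45a, a DNA damage gene that an early gene response also raises, measured 49.98, 55.1 and 50.4 CPM in the 6h libraries and 25.8, 23.6, 23.9 and 24.2 CPM in the 1d libraries (log2 difference -1.07 ± 0.08 SE, adjusted p = 2.87e-09), Trp53inp1 and Sesn1 fell (-0.49 and -0.35), and Phlda3 (5.69 ± 0.965 CPM at 6h and 13.7 ± 2.14 CPM at 1d, 1.19) and the nuclease gene Aen (0.55) rose.

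**Figure D3:**
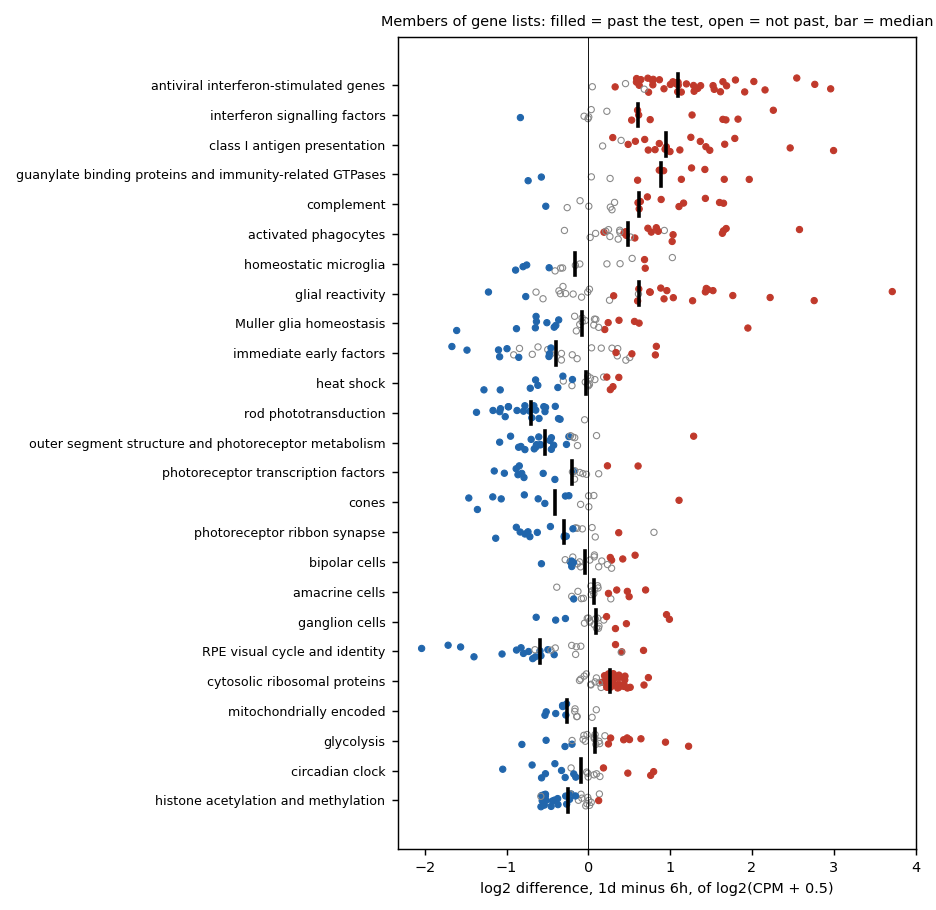
Log2 difference 1d minus 6h (horizontal axis) of the tested members of 25 gene lists (rows), filled red or blue where called higher or lower and open where not past the test, with a bar at each list's median. The antiviral list lies to the right, with a median of 1.09, and the rod phototransduction list to the left, with a median of -0.70.

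Photoreceptor genes were lower at 1d. Of the rod phototransduction genes 21 of 22 were lower and 1 did not pass (median log2 difference -0.70), against 17.5% lower over all genes, and with the depth set as a term 15 were lower (median -0.65). Pde6b, the beta subunit of rod phosphodiesterase, measured 2635, 2978 and 2765 CPM in the 6h libraries and 785, 1163, 1478 and 1010.4 CPM in the 1d libraries. Pde6b differed by -1.37 ± 0.14 SE on the log2 scale (adjusted p = 2.35e-07). Gngt1, the transducin gamma subunit, measured 734, 785 and 703 CPM in the 6h libraries and 270.1, 389, 426 and 340.2 CPM in the 1d libraries. For Gngt1 the log2 difference was -1.07 ± 0.11 SE (adjusted p = 3.33e-07). Rgs9bp, which anchors the protein that ends the transducin signal, measured 1174, 1287 and 1164 CPM in the 6h libraries and 407, 586, 726 and 483 CPM in the 1d libraries. Rgs9bp differed by -1.17 ± 0.13 SE on the log2 scale (adjusted p = 7.45e-07). The opsin kinase gene Grk1 (3057 ± 132 CPM at 6h and 1576 ± 332 CPM at 1d, -0.98) and the guanylate cyclase gene Gucy2f (294 ± 18.3 CPM at 6h and 143 ± 42.2 CPM at 1d, -1.08) were lower too. The rod transducin gene Gnat1 measured 7246, 9336 and 8800.1 CPM in the 6h libraries and 3680.0, 5153, 6845 and 4485 CPM in the 1d libraries. For Gnat1 the log2 difference was -0.78 ± 0.17 SE (adjusted p = 0.00133), but it was -0.73 with the depth set as a term, adjusted p = 0.0577.

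The 1d libraries differed among themselves in these genes. Library 1d 1 had the lowest of the 4 values in all 22 tested rod phototransduction genes, and library 1d 3 the highest in 21. The list's median against the 6h mean was -1.06 in 1d 1, -0.83 in 1d 4, -0.60 in 1d 2 and -0.34 in 1d 3. The library with the smallest fall of rod transcripts, 1d 3, was thus also the one with the lowest antiviral and class I values (35 of 40 and 20 of 21 genes). Why these values moved together was not tested.

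Structural genes of the outer segment and of photoreceptor metabolism were mostly lower: of 24 tested genes 1 higher and 18 lower (median log2 difference -0.53), and with the depth set as a term 1 higher and 11 lower (median -0.50). Impg2 was the member that rose. Rp1l1, a protein of the axoneme, measured 937, 984 and 957 CPM in the 6h libraries and 365, 470.5, 596 and 408 CPM in the 1d libraries. Rp1l1 differed by -1.08 ± 0.11 SE on the log2 scale (adjusted p = 2.03e-07). Rdh12, a retinol dehydrogenase (348 ± 12.6 CPM at 6h and 196 ± 43.2 CPM at 1d, -0.85), and Cabp4, a calcium sensor of the synapse (-0.78), were lower. A large fall at a high level was that of Nt5e, a surface enzyme that makes adenosine and marks rods. It measured 367, 355 and 324 CPM in the 6h libraries and 54.99, 77.2, 94.7 and 65.2 CPM in the 1d libraries (log2 difference -2.27 ± 0.12 SE, adjusted p = 5.74e-11), against 187 ± 12.6 CPM in NB and 91.5 ± 5.46 CPM at 3d. Stk35, a nuclear kinase, fell as well, with 1700.2, 1719 and 1643 CPM in the 6h libraries and 477, 582, 723 and 528 CPM in the 1d libraries. For Stk35 the log2 difference was -1.56 ± 0.10 SE (adjusted p = 8.55e-10). Abca4 itself measured 459, 476 and 459.7 CPM in the 6h libraries and 359, 387, 448 and 357 CPM in the 1d libraries (log2 difference -0.27 ± 0.09 SE, adjusted p = 0.0269, but 0.04 with the depth set as a term, adjusted p = 0.827, adjusted p = 0.0568 to 0.0842 without 6h 1, 6h 2, 6h 3, 1d 1 or 1d 4, adjusted p = 0.211 scaled by library totals) and Rdh8 37.6, 44.6 and 48.96 CPM in the 6h libraries and 29.5, 37.7, 44.6 and 38.9 CPM in the 1d libraries. For Rdh8 the log2 difference was -0.22 ± 0.13 SE (adjusted p = 0.216). Reads over a whole gene check nothing about a deletion, and no check of the labels can be drawn from these values.

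Cone genes were lower in part: of 14 tested genes 1 higher and 9 lower (median log2 difference -0.41), and with the depth set as a term 1 higher and 8 lower (median -0.41). Gnb3 was the higher one, and 4 did not pass. Arr3, cone arrestin, measured 378, 421 and 398 CPM in the 6h libraries and 132, 158, 196 and 142 CPM in the 1d libraries. For Arr3 the log2 difference was -1.36 ± 0.10 SE (adjusted p = 5.21e-09). Opn1mw, the middle-wave opsin, measured 102, 116 and 109.7 CPM in the 6h libraries and 39.6, 59.8, 57.1 and 40.1 CPM in the 1d libraries. Opn1mw differed by -1.17 ± 0.14 SE on the log2 scale (adjusted p = 2.88e-06). Kcne2, a channel subunit (47.8 ± 1.61 CPM at 6h and 22.8 ± 3.75 CPM at 1d, -1.07), and Ccdc136 (-0.61) were lower. The 5 cone markers summed to 974 to 1055 CPM at 6h and to 358 to 621 CPM at 1d, and to 1175 to 1231 CPM in NB. Of the photoreceptor transcription factors 10 of 19 were lower and 2 higher (median -0.20), and with the term 7 and 3. Crx, the homeobox factor that turns on rod and cone genes, measured 1265, 1322 and 1219 CPM in the 6h libraries and 515, 649, 759 and 590.4 CPM in the 1d libraries. For Crx the log2 difference was -1.03 ± 0.09 SE (adjusted p = 8.84e-08). Esrrb (467 ± 29.5 CPM at 6h and 215 ± 56.8 CPM at 1d, -1.15), Thrb (-0.79) and Mef2c (-0.84) were lower, and Six3, a factor of inner retina, was higher (0.61).

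The Crx motif TAATCC, on both strands, was in 5.89% of the 11632 windows of tested genes and in 8 of 15 windows of rod phototransduction genes (53.3%). It was in 12.6% of windows of genes at least 2-fold lower at 1d and in 4.86% of those at least 2-fold higher. The windows of Gngt1 (chr6:3993758-3994057, plus strand, 1 match) and Gucy2f (chrX:142196887-142197186, minus strand, 2 matches) are shown as examples of this falling group, with matches in capitals.
Gngt1: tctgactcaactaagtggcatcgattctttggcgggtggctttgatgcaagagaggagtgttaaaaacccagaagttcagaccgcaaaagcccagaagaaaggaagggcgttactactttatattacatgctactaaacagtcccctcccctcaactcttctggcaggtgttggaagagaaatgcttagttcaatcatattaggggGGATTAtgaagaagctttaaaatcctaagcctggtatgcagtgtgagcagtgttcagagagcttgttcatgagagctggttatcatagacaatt
Gucy2f: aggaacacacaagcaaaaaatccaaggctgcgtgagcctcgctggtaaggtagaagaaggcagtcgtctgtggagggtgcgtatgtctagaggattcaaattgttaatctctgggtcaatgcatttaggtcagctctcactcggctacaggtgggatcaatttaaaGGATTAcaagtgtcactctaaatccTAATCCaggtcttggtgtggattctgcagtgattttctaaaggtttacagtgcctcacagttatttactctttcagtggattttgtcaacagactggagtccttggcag

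Genes of the photoreceptor synapse were lower in part: of 19 tested genes 1 higher and 12 lower (median log2 difference -0.29), and with the depth set as a term 7 lower (median -0.26). By library totals 3 of the 19 were higher and 8 lower (median -0.16). Elfn1, which links rods to their bipolar cells, measured 175, 167 and 158 CPM in the 6h libraries and 61.1, 81.4, 87.4 and 75.2 CPM in the 1d libraries. Elfn1 differed by -1.13 ± 0.08 SE on the log2 scale (adjusted p = 4.14e-09). The calcium channel subunit gene Cacnb2 (-0.88), the glutamate transporter gene Slc17a7 (1522 ± 80.8 CPM at 6h and 861 ± 140.1 CPM at 1d, -0.83), Stx3 (-0.62) and Unc13b (-0.74) were lower. Cilium genes gave 17 of 32 lower and 3 higher (median -0.24), and with the term 6 and 3 (median -0.09). By library totals 10 of them were lower and 6 higher (median -0.10). For the cilium genes, leaving out 1 library gave 3 to 4 higher and 11 to 20 lower, a move of over 1.5 times without 6h 2. Kif3b, a motor subunit, fell (198 ± 7.72 CPM at 6h and 108 ± 13.1 CPM at 1d, log2 difference -0.88 ± 0.07 SE, adjusted p = 8.05e-09), as did Arl13b (-0.72) and Bbs9 (-0.58), while Arl6, the small GTPase that recruits the BBSome, rose (124 ± 10.4 CPM at 6h and 232 ± 25.2 CPM at 1d, log2 difference 0.90 ± 0.08 SE, adjusted p = 7.23e-08) and Ift57 rose by 0.62. On the list of pump and potassium channel genes 2 of 20 were higher and 6 lower (17.5% of all genes in each direction), 0 and 4 with the depth set as a term, and 6 and 5 by library totals. Among the lower were the potassium channel genes Kcnv2 (453 ± 17.2 CPM at 6h and 263 ± 75.3 CPM at 1d, -0.82) and Kcnj14 (-0.66), and the pump subunit gene Atp1b2 (-0.47, and -0.33 with the depth set as a term, adjusted p = 0.135).

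Genes of inner neurons were called in both directions, beside 35.0% called over all genes, and their list medians lay near 0. Of the bipolar cell genes 4 of 22 were higher and 6 lower, 3 and 2 with the depth set as a term, and 9 and 1 by library totals. Of the amacrine cell genes 5 of 19 were higher and 1 lower, 1 and 0 with the depth set as a term, and 12 and 0 by library totals. Of the horizontal cell genes 2 of 9 were higher and 3 lower, 3 and 2 with the depth set as a term. Of the ganglion cell genes 5 of 20 were higher and 3 lower, 2 and 1 with the depth set as a term, and 11 and 2 by library totals. The list medians were -0.04 for bipolar, 0.07 for amacrine, -0.10 for horizontal and 0.09 for ganglion cell genes. With library totals the medians of the bipolar and horizontal lists turned positive, at 0.09 and 0.02. In fits without 1 library the bipolar cell counts were 3 to 5 higher and 1 to 8 lower, over 1.5 times apart from these without 6h 1 or 6h 2. Fits that left out 1 library gave amacrine cell counts of 4 to 5 higher and 0 to 3 lower, with a move of over 1.5 times without 1d 1 or 1d 3. For the ganglion cell list 3 to 5 higher and 2 to 3 lower were called with 1 library left out, a move of over 1.5 times without 6h 1. Prkca, the kinase of rod bipolar cells, fell (408 ± 12.5 CPM at 6h and 274 ± 15.9 CPM at 1d, log2 difference -0.57 ± 0.05 SE, adjusted p = 1.14e-07), while the cone bipolar receptor gene Grik1 rose (0.57). Slc17a8, a glutamate transporter of some amacrine cells, rose, with 14.4 ± 1.21 CPM at 6h and 23.6 ± 0.828 CPM at 1d (0.70). Gap43, a growth cone protein that regrowing ganglion cells make, measured 28.1, 28.4 and 27.4 CPM in the 6h libraries and 56.4, 58.2, 53.3 and 56.2 CPM in the 1d libraries (log2 difference 0.99 ± 0.06 SE, adjusted p = 4.58e-10), and Sox11, a factor of axon growth and injury, rose (3.14 ± 0.4699 CPM at 6h and 6.55 ± 0.867 CPM at 1d, 0.95). Rbpms, a ganglion cell marker, was lower (-0.40) and Nefh, a neurofilament, was higher (0.46, and 0.03 with the depth set as a term, adjusted p = 0.910). Ndrg1, which is on the horizontal cell list but is expressed in other cells too, fell (338 ± 7.98 CPM at 6h and 183 ± 13.8 CPM at 1d, -0.88).

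Transcripts of the pigment epithelium, which lies against the outer segments and partly comes off with the retina, were lower at 1d: of 26 tested genes 3 higher and 15 lower (median log2 difference -0.59), and with the depth set as a term 15 lower (median -0.94). The term rests on NB, where this list summed to 1674 to 1844 CPM in the deeper and 2049 to 2177 CPM in the shallower libraries. Rpe65, the isomerase of the visual cycle, measured 74.2, 49.6 and 66.6 CPM in the 6h libraries and 20.3, 23.02, 22.6 and 11.6 CPM in the 1d libraries. For Rpe65 the log2 difference was -1.71 ± 0.21 SE (adjusted p = 3.13e-06). Lrat, which esterifies retinol, measured 44.9, 40.4 and 59.8 CPM in the 6h libraries and 16.03, 22.03, 15.5 and 11.4 CPM in the 1d libraries. Lrat differed by -1.56 ± 0.19 SE on the log2 scale (adjusted p = 3.57e-06). Kcnj13, a potassium channel of the apical membrane, measured 25.4, 25.03 and 37.7 CPM in the 6h libraries and 7.18, 7.84, 7.07 and 4.88 CPM in the 1d libraries (log2 difference -2.04 ± 0.25 SE, adjusted p = 3.56e-06, and -2.82 ± 0.30 SE with the depth set as a term). Enpp2, the enzyme autotaxin, fell as well (175 ± 21.4 CPM at 6h and 65.95 ± 6.87 CPM at 1d, -1.40), and so did Rrh, peropsin (-0.79). The 3 RPE markers in the table summed to 315 to 424 CPM at 6h, 141 to 212 at 1d and 196 to 294 in NB. How much pigment epithelium stayed attached to each retina was not measured, and its part in these and the other results was not tested. Melanin genes gave 3 of 12 lower (median -0.83), and 2 with the term. Their median was -0.32 without 6h 1 and -1.35 without 6h 2. The melanin synthesis counts were 2 to 8 lower with 1 library left out, and moved by over 1.5 times without 6h 2. Oca2 (11.2 ± 3.96 CPM at 6h and 3.201 ± 0.408 CPM at 1d, -1.60) and Tyr (-1.05) were among them.

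**Figure D4:**
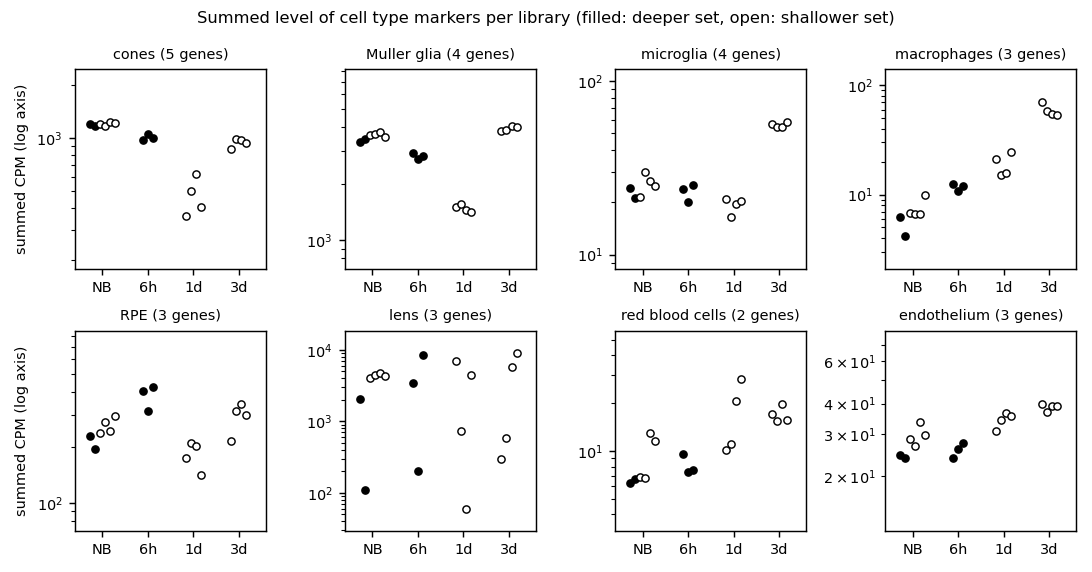
Summed CPM on a log axis of marker genes of 8 cell types in each retina library, by group, with filled points for the deeper and open points for the shallower libraries. Cone, Muller glia and RPE sums are lower in every 1d library than in every 6h library, and lens sums spread over more than a factor of 10 within both groups. The Muller glia sum falls mostly through Glul.

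Lens transcripts varied from library to library. The 3 lens markers summed to 205 to 8336 CPM at 6h and 59.2 to 6887 CPM at 1d, and none of the 20 tested lens genes passed in limma, at an unadjusted p under 0.05, in edgeR or in DESeq2. Red cell genes gave 3 of 6 higher and 1 with the term, Bpgm (0.36). For the red cell genes, leaving out 1 library gave 1 to 4 higher, a move of over 1.5 times without 6h 2 or 1d 4. The 2 red cell markers summed to 7.43 to 9.59 CPM at 6h and 10.2 to 28.3 CPM at 1d. Of the endothelial genes 5 of 18 were higher and 1 lower (17.5% of all genes in each direction), 2 and 0 with the depth set as a term, and 6 and 0 by library totals. Their median was 0.05, and -0.05 with the term. In fits without 1 library the endothelial counts were 5 higher and 0 to 1 lower, over 1.5 times apart from these without 6h 1, 1d 2, 1d 3 or 1d 4. Kdr, a VEGF receptor that Muller glia and vessels express, measured 251, 243 and 231 CPM in the 6h libraries and 463, 446, 431 and 462 CPM in the 1d libraries (log2 difference 0.90 ± 0.06 SE, adjusted p = 5.77e-10), and Vwf, von Willebrand factor, 9.63, 9.41 and 8.52 CPM in the 6h libraries and 28.1, 22.03, 29.6 and 28.9 CPM in the 1d libraries. For Vwf the log2 difference was 1.50 ± 0.11 SE (adjusted p = 4.14e-09). Cldn5, a tight junction gene of vessels, rose by 0.99, and 0.47 with the depth set as a term, adjusted p = 0.0812, and Tie1 by 0.58, and 0.31 with the depth set as a term, adjusted p = 0.396.

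Genes of protein synthesis and turnover were shifted by small amounts. Of the cytosolic ribosomal protein genes 39 of 49 were higher (median 0.26) and the other 10 did not pass, and with the term 7 were higher (median 0.22). Rps2 measured 164, 168 and 186 CPM in the 6h libraries and 315, 275, 241 and 281 CPM in the 1d libraries (log2 difference 0.68 ± 0.09 SE, adjusted p = 1.18e-05), Rplp2 rose by 0.48, and Rplp0 by 0.73, and 0.48 with the depth set as a term, adjusted p = 0.0557. Library 1d 3 held the lowest 1d value in 48 of the 49, where the list's median against 6h was 0.09. Many of these genes have processed pseudogenes that can take reads. In ribosome biogenesis 15 of 35 were higher and 3 lower, 4 and 1 with the depth set as a term, and 27 and 1 by library totals. Over all genes 17.5% were called in each direction without the term. Fits that left out 1 library gave ribosome biogenesis counts of 5 to 15 higher and 1 to 3 lower, with a move of over 1.5 times without 6h 1, 6h 2 or 6h 3. Of these, Fbl was higher (0.50), Nhp2 was higher (0.80) and Nop56 was lower (-0.46). Proteasome subunits gave 17 of 30 higher (median 0.17), led by Psmd2 (0.33, and 0.18 with the depth set as a term, adjusted p = 0.129), and none with the term, where 5 had an unadjusted p under 0.05 (edgeR without the term called 17 and DESeq2 16). For the proteasome list 9 to 18 higher were called with 1 library left out, a move of over 1.5 times without 6h 1. Scaled by library totals, 28 of the proteasome genes were higher (median 0.31).

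In energy metabolism the glycolysis list gave of 25 tested genes 8 higher and 4 lower (median log2 difference 0.08), and with the depth set as a term 11 higher and 3 lower (median 0.10). By library totals 16 were higher and 2 lower (median 0.22). Slc16a3, the lactate exporter, measured 15.9, 14.1 and 15.2 CPM in the 6h libraries and 40.8, 33.6, 35.2 and 34.2 CPM in the 1d libraries. Slc16a3 differed by 1.22 ± 0.12 SE on the log2 scale (adjusted p = 1.28e-07). Tpi1 (453 ± 4.54 CPM at 6h and 707 ± 15.8 CPM at 1d, 0.64), Pfkl (0.47), Pdk1 (0.50) and Ak4 (17.6 ± 2.05 CPM at 6h and 34.2 ± 1.82 CPM at 1d, 0.94) rose. Bnip3, a hypoxia-induced mitophagy gene, rose too (0.57), and Egln3, an oxygen sensor gene (0.74). Of the nuclear genes of oxidative phosphorylation 6 of 34 were higher and 1 lower, 0 and 1 with the depth set as a term, and 22 and 0 by library totals. Without the term the share higher was close to the 17.5% of all genes. The oxidative phosphorylation counts were 5 to 10 higher and 1 lower with 1 library left out, and moved by over 1.5 times without 1d 3. The mitochondrially encoded genes gave 7 of 13 lower (median -0.27), and with the term 1 higher, so their fall was not seen once the depth set was a term. By library totals 3 of the 13 were lower. For the mitochondrially encoded genes, leaving out 1 library gave 3 to 7 lower, a move of over 1.5 times without 6h 1 or 6h 3. mt-Co3 measured 229, 197 and 221 CPM in the 6h libraries and 155, 149, 134 and 158 CPM in the 1d libraries. For mt-Co3 the log2 difference was -0.53 ± 0.11 SE (adjusted p = 0.00117), but it was -0.09 with the depth set as a term, adjusted p = 0.668. In cholesterol synthesis 5 of 24 were higher and 2 lower (17.5% of all genes in each direction), 2 and 3 with the depth set as a term. Without the term the other 17 did not pass. Ebp was higher (14.9 ± 0.622 CPM at 6h and 29.03 ± 1.04 CPM at 1d, 0.94) and Dhcr7 lower (-0.50).

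Of the circadian clock genes 4 of 20 were higher and 9 lower (17.5% of all genes in each direction). With the depth set as a term the counts were 3 and 4, and by library totals 7 and 6. The list's median was -0.09, and 0.05 by library totals. Arntl, the positive factor of the clock, measured 192, 186 and 179.8 CPM in the 6h libraries and 78.1, 88.7, 102 and 91.05 CPM in the 1d libraries. Arntl differed by -1.05 ± 0.06 SE on the log2 scale (adjusted p = 3.55e-10). Dbp, an output factor, measured 99.6, 110.4 and 112 CPM in the 6h libraries and 196, 191, 167 and 175 CPM in the 1d libraries (log2 difference 0.76 ± 0.07 SE, adjusted p = 7.75e-08), and Cry1, a repressor, fell (79.97 ± 6.53 CPM at 6h and 49.4 ± 2.02 CPM at 1d, -0.69). The 6h and 1d samples may have been taken at different hours of the day, which the labels do not give, so that clock time and time after the event cannot be told apart. Of the genes for histone acetylation and methylation 19 of 32 were lower and 1 higher (median -0.25), and with the term 11 were lower (median -0.19). By library totals 14 were lower and 3 higher (median -0.11). In fits without 1 library the histone gene counts were 0 to 1 higher and 15 to 20 lower, over 1.5 times apart from these without 6h 1, 6h 3, 1d 1 or 1d 4. Brd2 (403 ± 9.26 CPM at 6h and 273 ± 15.7 CPM at 1d, -0.56), Kdm5b (-0.58), Hdac9 (-0.52), Kat2b (-0.46) and Kat6b (-0.54) were lower. Of the DNA methylation genes 1 of 16 were higher and 6 lower (17.5% of all genes in each direction), 1 and 4 with the depth set as a term, and 3 and 4 by library totals. Tet3, an enzyme that oxidises methylcytosine, measured 432, 457 and 423 CPM in the 6h libraries and 198, 236, 291 and 215 CPM in the 1d libraries (log2 difference -0.91 ± 0.09 SE, adjusted p = 3.63e-07), and Dnmt3a fell by 0.42 on the log2 scale (314 ± 15.9 CPM at 6h and 235 ± 24.8 CPM at 1d). Among cell cycle genes 7 of 27 were higher and 3 lower (17.5% of all genes in each direction), 5 and 1 with the depth set as a term. Fits that left out 1 library gave cell cycle counts of 4 to 7 higher and 2 to 3 lower, with a move of over 1.5 times without 6h 2. The replication genes Mcm3 (2.39 ± 0.242 CPM at 6h and 6.196 ± 2.25 CPM at 1d, 1.15), Mcm2 (0.51) and Uhrf1 (1.104) rose, and the mitotic genes Ccnb2 (6.14 ± 1.38 CPM at 6h and 2.55 ± 0.764 CPM at 1d, -1.14) and Ckap2 (6.51 ± 0.182 CPM at 6h and 1.59 ± 0.315 CPM at 1d, -1.76) fell.

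Growth factor lists had calls in both directions, beside 17.5% of all genes in each, and most of their genes did not pass. Of the fibroblast growth factors and receptors 2 of 18 were higher and 1 lower, 1 and 2 with the depth set as a term. In the EGF family these counts were 3 and 2 of 12, and 1 and 2 with the term. For TGF-beta, BMP and Wnt signalling they were 4 and 3 of 26, and 1 and 5 with the term. Fgf2, a survival factor of injured retina, measured 32.5, 36.7 and 37.7 CPM in the 6h libraries and 62.8, 62.2, 54.3 and 61.5 CPM in the 1d libraries (log2 difference 0.75 ± 0.10 SE, adjusted p = 1.20e-05), and Spry2, a brake on its receptor, fell (110.4 ± 1.75 CPM at 6h and 60.04 ± 7.48 CPM at 1d, -0.88). Btc, betacellulin of the EGF family, measured 11.4, 13.5 and 13.4 CPM in the 6h libraries and 28.9, 31.8, 35.5 and 41.9 CPM in the 1d libraries (log2 difference 1.39 ± 0.12 SE, adjusted p = 2.44e-08), and the receptor inhibitor gene Errfi1 fell (-0.45). Tgfb2 rose (93.4 ± 5.51 CPM at 6h and 154 ± 15.1 CPM at 1d, log2 difference 0.72 ± 0.08 SE, adjusted p = 1.94e-06) while its receptor gene Tgfbr1 fell (73.4 ± 3.83 CPM at 6h and 43.5 ± 0.995 CPM at 1d, -0.74). With 1 library left out, the fibroblast growth factor counts were 1 to 2 higher and 1 to 3 lower. Those of the EGF family were 2 to 4 and 2 to 3, and those of TGF-beta, BMP and Wnt signalling 2 to 6 and 2 to 4. Of the metalloproteinase list 8 of 19 were higher and 3 lower, 5 and 2 with the depth set as a term, with Mmp14 (17.98 ± 0.936 CPM at 6h and 44.2 ± 7.18 CPM at 1d, 1.26), the macrophage elastase gene Mmp12 (0.497 ± 0.0971 CPM at 6h and 4.77 ± 1.43 CPM at 1d, 2.37), Mmp2 (0.83) and Prss23 (0.87) higher. Of the matrix list of collagens and laminins 1 of 30 was higher and 1 lower, under the 17.5% of all genes in each direction. The other 28 did not pass, and the list summed to 991 to 2866 CPM at 6h and 1219 to 2923 CPM at 1d. Leaving out 1 library gave 0 to 2 matrix genes higher and 1 to 2 lower. The lower one was the laminin gene Lamc1 (75.6 ± 9 CPM at 6h and 47.7 ± 9.15 CPM at 1d, -0.67).

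The other genes with the largest falls were of mixed kinds. Glb1l3, a galactosidase-like gene, measured 13.4, 9.41 and 9.16 CPM in the 6h libraries and 0.932, 1.79, 3.49 and 1.16 CPM in the 1d libraries. For Glb1l3 the log2 difference was -2.35 ± 0.33 SE (adjusted p = 1.81e-05). Arg2, mitochondrial arginase, measured 27.2, 26.8 and 26.7 CPM in the 6h libraries and 4.29, 9.03, 8.46 and 5.46 CPM in the 1d libraries. Arg2 differed by -1.96 ± 0.16 SE on the log2 scale (adjusted p = 2.20e-08). Tmem229b, a membrane protein with a near-identical pseudogene, measured 495, 488 and 465 CPM in the 6h libraries and 129, 143, 174 and 128 CPM in the 1d libraries (log2 difference -1.76 ± 0.08 SE, adjusted p = 7.19e-12), so its reads may be split with Tmem229b-ps (-1.76). E130310I04Rik measured 116, 122 and 118 CPM in the 6h libraries and 19.7, 30.1, 57.3 and 27.6 CPM in the 1d libraries (log2 difference -1.91 ± 0.21 SE, adjusted p = 7.90e-07), where library 1d 3 was again nearest to the 6h group. Ifi203, an interferon-inducible gene of the HIN family, fell against the antiviral list (13.5 ± 2.98 CPM at 6h and 3.42 ± 1.13 CPM at 1d, -1.86). Etnppl, a phospholipid enzyme of astrocytes, measured 7.09, 3.87 and 7.6003 CPM in the 6h libraries and 1.398, 0.893, 1.13 and 1.41 CPM in the 1d libraries (log2 difference -1.93 ± 0.42 SE, adjusted p = 0.00123, but -0.14 with the depth set as a term, adjusted p = 0.832), so its fall was not seen with the term. The gene models Gm5297 (-2.25), Gm6012 (-1.87), AC113104.1 (-1.79) and BC055402 (-1.75) also met the rule.

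The calls were also read with the depth set as a term by size of difference. Of the 528 genes called at least 2-fold, 526 had the same direction with the depth set as a term and 448 passed again in it. Of all 5932 calls, 5844 had the same direction and 88 the other. Among the genes with large CPM differences, Clu and Gnat1 lost their calls.

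**Figure D5:**
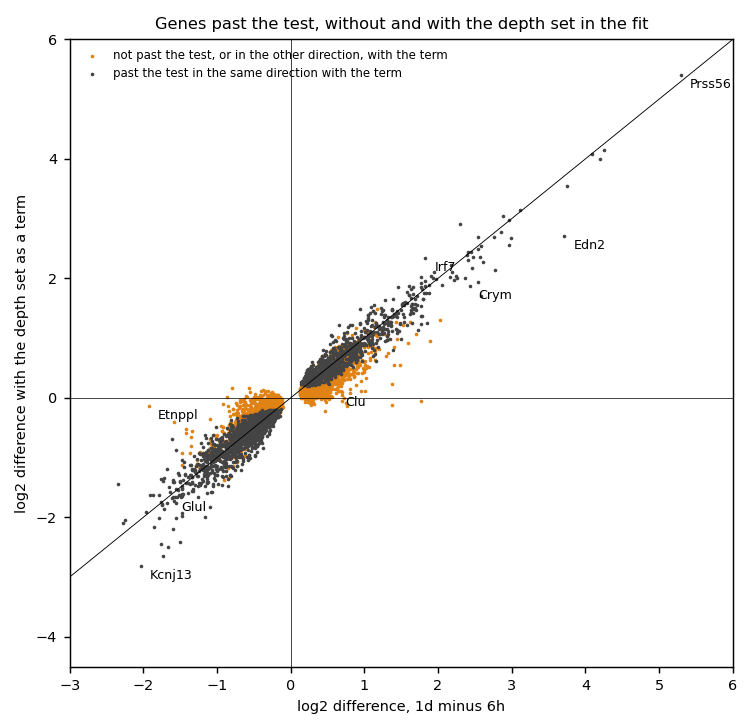
Log2 difference 1d minus 6h of the 5932 called genes without (horizontal axis) and with (vertical axis) the depth set as a term, with the line of equal values. Black points passed again in the same direction, and orange points did not, among them Clu and Etnppl.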

How the data were processed

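Retina RNA was read from stranded mRNA libraries of the 6h (n = 3), 1d (n = 4), NB (n = 6) and 3d (n = 4) groups, per the labels. The submitters' processing notes name GRCm38 and, as tools, STAR, Trimmomatic and edgeR. The read counter and all versions are not given in the sources used here. The deposited signal values are CPM that the authors made with an effective library size, per the file headers and the values. Divided by the value of 1 read, the values of all 16930 genes were whole to within 0.01, and these reads entered the count tests. Totals were 22.6 to 32.4 M reads at 6h and 9.45 to 11.3 M at 1d, so that 1 read was worth at most 0.0992 CPM at 1d. CPM is not divided by gene length, so levels are not compared between genes. Only 1 table was used, since the retina tables hold the same CPM columns, and RPE and ATAC data were not analysed here. NB columns carry the group but no sample of their own. The authors' fold changes and p-values were not used. Gene symbols were matched by identifier, and 6 identifiers stayed without one.

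Log2(CPM + 0.5) of all 17 libraries was fitted with limma 3.58.1 in R 4.3.3 (group means, variance trend, Benjamini-Hochberg adjustment over 16926 genes, those reaching 1 CPM in 3 libraries or more). All 4 groups share 1 estimate of the spread. The depth set term used the split of NB into libraries above and below 20 M reads. Other settings tried were library totals, TMM rescaling, pseudocounts of 0.1 and 2, no filter, edgeR 4.0.16 and DESeq2 1.42.0 on recovered reads, a fit of 6h and 1d alone, reads thinned to equal depth, a minimum fold of 2, a replicate block and leaving out each library. On simulated data with 16789 genes tested, 74 of 100 genes changed by 1 on the log2 scale and 59 of 100 changed by 0.5 were recovered, with 8 unchanged genes called. Only these genes were changed, in the 1d libraries, with no effect of the depth set put in and with scaling by library totals. In the real data 35.0% of genes were called, on effective library sizes. The simulation therefore cannot show how many of those calls come from the depth set.

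The comparison, its 59 gene lists and the motifs were chosen with earlier results of these data known. Genes were named by a rule: the 15 called genes with the largest difference in each direction whose groups do not overlap and whose higher mean is at least 2 CPM, the 8 in each direction with the largest difference of mean CPM, the 5 genes per list that had the lowest adjusted p, all tested interleukin-6 family ligands and interferon signalling factors, and Abca4 and Rdh8. Gbp2, Gbp2b, Krt5 and Krt12 were named outside it, and some genes that met it are not reported here.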

Additional observations from a re-analysis of the deposited data

Results flagged for a closer look

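In 7 of 241 genes named above, 1 of the 4 libraries at 1d stood apart from the other 3 by Dixon's ratio at its 95% critical value. Chance alone flags about 1 in 20 such groups. In 5 of these genes the library was 1d 3. Ccl9 was 5.06 CPM there and 6.24 to 6.46 in the others. Ern1 was 61.9 against 45.6 to 48.1, Fgf2 54.3 against 61.5 to 62.8, H2-Q7 3.75 against 5.16 to 5.38 and Socs2 22.9 against 25.5 to 25.7. In each of these genes the value of 1d 3 lay on the side of the 6h libraries. Jun was 94.5 CPM in 1d 2 and 108 to 109 in the others, and Nop56 was 89.7 CPM in 1d 1 and 100.01 to 101 in the others.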

How the results depend on the processing

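The 5932 calls (2963 higher, 2969 lower, 528 at least 2-fold) stayed within 1.5 times under both pseudocounts, no filter, TMM rescaling, edgeR, DESeq2, the fit of 6h and 1d alone and thinned reads, where calls ranged from 5194 to 6093. TMM rescaling repeated the counts exactly, as the CPM were already on an effective library size. Without a filter 16930 genes were tested in place of 16926. Neither setting could move the counts much. Library totals gave 7441 calls, 5605 higher and 1836 lower. The depth set as a term gave 2427, with 979 higher and 1448 lower. Testing against a minimum fold of 2 gave 87 genes, 60 higher and 27 lower. Leaving out 1 library gave 4675 to 6197 calls, 2297 to 3075 higher, 2378 to 3122 lower and 459 to 629 at least 2-fold. The fit with the replicate number as a block gave 5323 calls. Deviations of libraries with the same number correlated at 0.247, 0.281 and -0.538 over genes, so the numbers were not taken to pair the samples. Of 225 called genes named in the text, 29 no longer passed with the depth set as a term, 4 with thinned reads, 184 against the minimum fold, and at most 5 under any other setting. Rdh8, not called, passed in the fit with the block (-0.23, adjusted p = 0.0324). Abca4 changed sign with the depth set as a term (0.0444). At 1d depth limits low genes: 1 read was 0.0828 to 0.0992 CPM.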
